A study of Cucumis sativus with 4 samples.

Results

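In young cucumber (Cucumis sativus) fruits, a group of 21 of 20000 listed genes was at least 2 times higher in a single pool of long fruits than in any other library. The pool was replicate 2 of line 408. The genes were chosen by their measured values in all 4 libraries: at least 20 RPM in 408 replicate 2, at least 2 times the highest of the other 3 libraries, and a mean of the 4 libraries under 500 RPM. An RPM value is the number of a gene's reads in every 1000000 reads assigned to listed genes, without division by gene length. The excess of 408 replicate 2 is therefore the choice itself and not a finding. What the choice did not fix is the order of the other 3 libraries among themselves. They show whether these genes peaked in 1 pool and were flat elsewhere, or descended across the pools. The genes descended: 408 replicate 1 lay above both 409 libraries in 19 of the 21 genes, and 0 of 21 were flat. Of all 9829 genes with 20 RPM or more in 408 replicate 2, 52.3% had that order and 57.6% were flat. Where 408 replicate 2 was 1.5 to under 2 times the highest other library, 97.8% had that order and 3.02% were flat. The order is therefore not particular to the 21 genes. In 21 of 21 genes 409 replicate 2 was the lowest of the 3, against 51.9% of the 9829 genes, which were chosen by level only. Across 17391 tested genes the deviations of same-numbered libraries correlated at -0.48. Genes higher in 408 replicate 2 than in 408 replicate 1 thus tended to be lower in 409 replicate 2 than in 409 replicate 1. The part of this in the 21 genes was not tested. The largest step lay between the lines in 8 genes, within line 409 in 8 and within line 408 in 5.

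Line 408 bears long fruits and line 409, its near-isogenic partner, bears short ones. Near-isogenic lines are bred to share most of the genome and to differ in a few segments. There were 2 biological samples per line, and a sample was a pool of 3 to 5 fruits from different plants, picked at a length of 2 to 4 cm, all on 1 day. Both lines were grown in a greenhouse, and no treatment was named. The mean fruit length of each pool is not given in the sources used here.

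The cucumber fruit grows from the ovary of the flower, first mainly by cell division and then by cell expansion, and its length depends on both. Dividing and expanding tissues express different sets of genes. The files do not pair the gene IDs with names, and 0 of the IDs matched the reference table used here, so the functions of the 21 genes, their sequences and the markers of fruit tissue were not analysed here. In pooled fruits, fewer cells of a type and less RNA per cell cannot be told apart.

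The libraries held an estimated 12256000 to 13808000 reads of the listed genes. At 20 RPM or more in 408 replicate 2 there were 9829 genes, of which 37.3% ran in the full order 408 replicate 2, 408 replicate 1, 409 replicate 1 and 409 replicate 2, from high to low. The same order held in 19 of the 21 genes. The part of the order over the whole table in that pattern was not tested.

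The 21 genes ranged from 22.3 to 407.8 RPM in 408 replicate 2, with a median of 83.1 RPM, and from 11.0 to 197.5 RPM in 408 replicate 1, with a median of 41.3 RPM. They ranged from 1.4 to 93.0 RPM in 409 replicate 1, with a median of 13.4 RPM, and from 0.7 to 12.2 RPM in 409 replicate 2, with a median of 4.4 RPM. Together they made up 0.251% of the reads in 408 replicate 2 and 0.116% in 408 replicate 1, against 0.0370% in 409 replicate 1 and 0.00947% in 409 replicate 2. No gene of the 21 was listed at 0 RPM in any library. In 409 replicate 2, 6 of 21 were under 2 RPM, so their ratios to that library are rough.

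**Figure D1:**
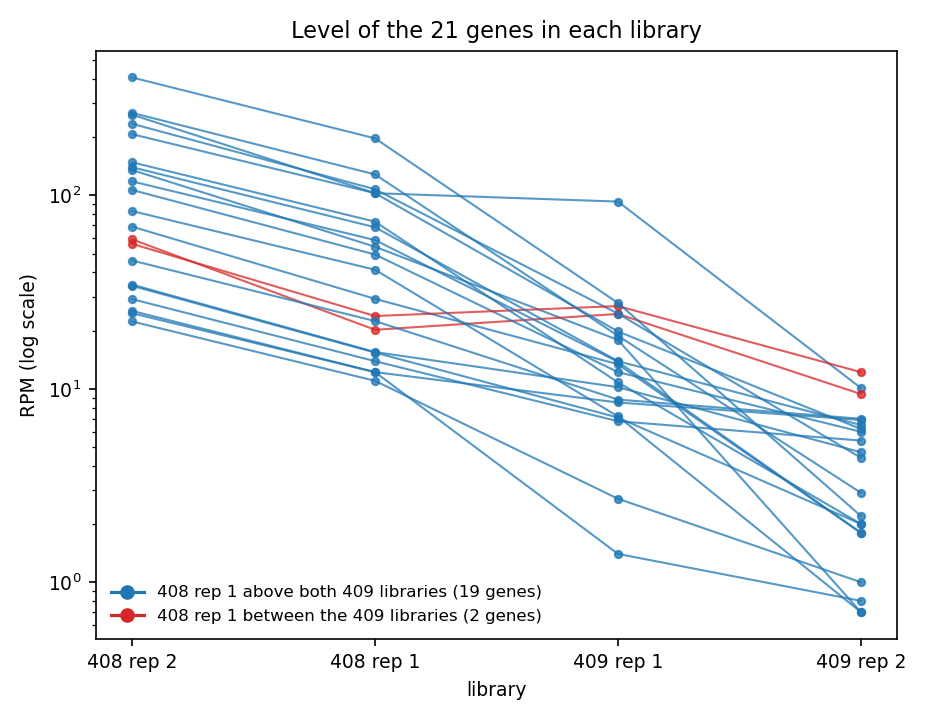
RPM of each of the 21 genes (log axis) in the 4 libraries, 1 line per gene, with the 408 libraries on the left and the 409 libraries on the right. All 21 lines end lowest in 409 replicate 2, and 2 lines (red) turn up between 408 replicate 1 and 409 replicate 1.

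The line order was less common in the table as a whole. Among all 9829 genes with at least 20 RPM in 408 replicate 2, 408 replicate 1 lay above both 409 libraries in 52.3%, against 19 of 21 (90.5%) here. The other 3 libraries lay within 1.5 times of each other in 57.6% of the 9829 genes, against 0 of 21 here. The highest of the other 3 libraries was 1.77 to 89.8 times the lowest, with a median of 11.0 times. The choice sets an upper limit for these 3 libraries and no lower one, and genes are not independent replicates, so the shares are given without a test. The 9829 genes were chosen by level only, so they are not a like comparison. Where 408 replicate 2 was 1.5 to under 2 times the highest other library, 97.8% were in line order and 3.02% flat. The order therefore does not set the 21 genes apart from genes with a smaller excess.

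A level at least 2 times higher in 408 replicate 2 than in 408 replicate 1 was rare, and in the genes that had it 409 replicate 2 was the lowest library. Of the 9829 genes, 23 were at least 2 times higher in 408 replicate 2 than in 408 replicate 1. In 23 of these 23 genes 408 replicate 2 was the highest of the 4 libraries and 409 replicate 2 the lowest. The 21 genes of the group are among these 23, so the counts are not separate from those of the group. Over all 9829 genes, which were chosen by level only, 409 replicate 2 was below 408 replicate 1 and 409 replicate 1 in 51.9%. By contrast, 1459 of the 9829 genes were at least 2 times higher in 408 replicate 2 than in both 409 libraries, and 22 of these 1459 (1.51%) were also at least 2 times higher than in 408 replicate 1.

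The 2 genes of the 23 outside the group were named after their values were seen. Csa1G228960 measured 1145.4 and 558.4 RPM in 408 replicates 2 and 1, against 268.0 and 40.0 RPM in 409 replicates 1 and 2, and was left out because its mean was 503 RPM. It descended through the 4 libraries like most of the 21 genes, at a higher level. Csa3G027210 measured 27.4 and 5.1 RPM in 408 replicates 2 and 1, against 13.9 and 2.0 RPM in 409 replicates 1 and 2, and its highest other library gave a ratio of 1.97. In this gene the libraries of the lines were interleaved, with 408 replicate 1 below 409 replicate 1.

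**Figure D2:**
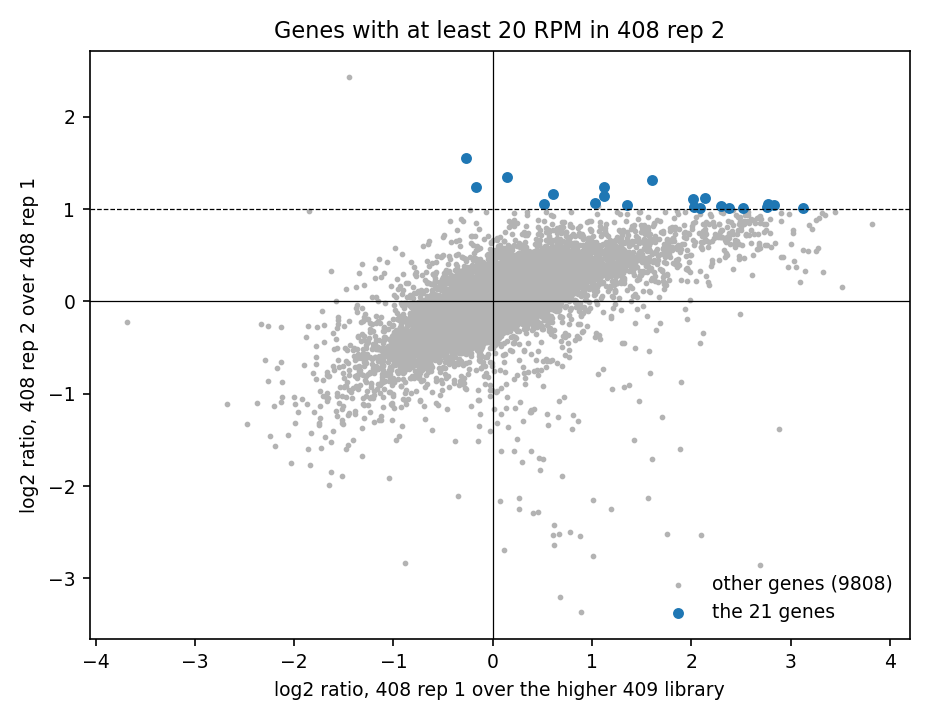
Each point is 1 of the genes that reached 20 RPM in 408 replicate 2. The vertical axis is the log2 ratio of 408 replicate 2 to 408 replicate 1 (dashed line: 2-fold) and the horizontal axis the log2 ratio of 408 replicate 1 to the higher 409 library. Of the 21 genes (blue), 19 lie right of 0, and the grey point far above the dashed line on the left is Csa3G027210.

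Csa2G371100 had the largest ratio to the other libraries. It measured 261.7 and 102.8 RPM in 408 replicates 2 and 1, against 93.0 and 10.1 RPM in 409 replicates 1 and 2. Its ratio of 408 replicate 2 to 408 replicate 1 was 2.55 (95% counting interval 2.39 to 2.71). Its middle libraries were nearly level, at 1.11 times, while 409 replicate 1 was 9.21 times 409 replicate 2. The lines averaged 182 ± 112 RPM in 408 and 51.6 ± 58.6 RPM in 409 (SD, n = 2 each), so that each SD was large beside the mean of its line.

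Csa7G072810 came next and had one of the widest ranges of the 21 genes. It measured 135.4 and 54.3 RPM in 408 replicates 2 and 1, against 17.9 and 0.7 RPM in 409 replicates 1 and 2. Each library stood well below the one before it, and 408 replicate 2 exceeded 409 replicate 2 by 193 times. That ratio rests on 0.7 RPM in 409 replicate 2 and has no interval, so its size is rough. Its lines averaged 94.9 ± 57.3 RPM in 408 and 9.30 ± 12.2 RPM in 409 (SD, n = 2 each). No gene of the 21 had 408 replicate 1 below both 409 libraries, so no example of that kind could be given.

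The 2 genes off the line order were named for that after their values were seen. Csa6G324830 measured 59.3 and 20.2 RPM in 408 replicates 2 and 1, against 24.4 and 9.4 RPM in 409 replicates 1 and 2. CsaUNG012530 measured 56.2 and 23.8 RPM in 408 replicates 2 and 1, against 26.8 and 12.2 RPM in 409 replicates 1 and 2. In both genes 408 replicate 1 and 409 replicate 1 were close, with ratios of 0.828 and 0.888, and 409 replicate 2 was still the lowest library. Their other 3 libraries spanned 2.60 and 2.20 times.

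The remaining genes differed mostly in how steep the descent was. At the top of the range, the most abundant gene measured 407.8 and 197.5 RPM in 408 replicates 2 and 1, against 27.8 and 2.2 RPM in 409 replicates 1 and 2. The gene with the steepest step between the lines measured 24.6 and 12.2 RPM in 408 replicates 2 and 1, against 1.4 and 0.8 RPM in 409 replicates 1 and 2, a ratio of 8.71 between 408 replicate 1 and 409 replicate 1. The gene with the shallowest descent measured 25.3 and 12.2 RPM in 408 replicates 2 and 1, against 8.5 and 6.9 RPM in 409 replicates 1 and 2. Its other 3 libraries spanned 1.77 times, and it was the only gene of the 21 to stay within 2 times.

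The span from the highest to the lowest library had a larger median in abundant genes of the group than in low ones. At 100 RPM or more in 408 replicate 2, 10 genes were 17.8 to 193 times higher in that library than in 409 replicate 2, with a median of 59.6 times. The 7 genes below 50 RPM were 3.67 to 30.8 times higher, with a median of 7.36 times. The 4 genes between 50 and 100 RPM lay at 4.61 to 119 times. These ranges overlap, and the difference between the classes was not tested. The level in 408 replicate 2 set the classes and is also the upper value of each span. A larger span in the abundant class therefore follows in part from the grouping, and nothing is read from it.

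The descent can be read as 3 steps. From 408 replicate 2 to 408 replicate 1, the step the choice fixed at 2 times or more, the median ratio was 2.08 (range 2.01 to 2.94). Across the lines, 408 replicate 1 was a median of 4.06 times 409 replicate 1 (range 0.828 to 8.71), and within line 409 replicate 1 was a median of 3.19 times replicate 2 (range 1.23 to 25.6). Over all 9829 genes, chosen by level only, the medians of the same 3 ratios were 1.02, 1.06 and 1.07. Where 408 replicate 2 was 1.5 to under 2 times the highest other library (464 genes), these medians were 1.63, 2.56 and 2.14. Genes with a smaller excess thus also descended at the later steps. The largest step lay between the lines in 8 genes, within line 409 in 8 and within line 408 in 5.

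Beyond the step that the choice fixed, most of the genes also dropped by 2 times or more at the later steps. In 16 of 21 genes 408 replicate 1 was at least 2 times both 409 libraries, against 7.91% of the 9829 genes. In 17 of 21 genes 409 replicate 1 was at least 2 times 409 replicate 2, against 4.99% of the 9829 genes. The 9829 genes were chosen by level only, and these shares were not counted in genes with a smaller excess. All 3 steps were 2 times or more in 13 of 21, a share that was not counted over the 9829 genes. The first of the steps was fixed by the choice in all 21 genes. That first step alone was present in 23 of the 9829 genes (0.234%), which is not a background for the 13.

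**Figure D3:**
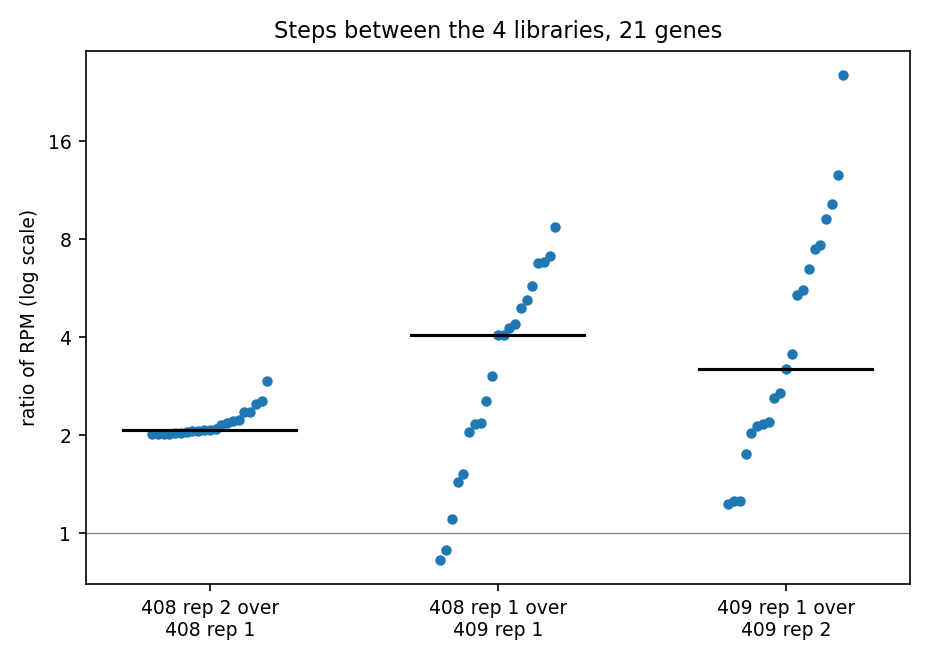
Ratio of RPM (log axis) between libraries next to each other in the descent, 1 point per gene and a bar at the median of the 21 genes. The step within line 408 is crowded just above 2 (median 2.08), while those between the lines and within line 409 are spread widely (medians 4.06 and 3.19).

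The limit of 2 times cut through a continuum. The ratio of 408 replicate 2 to the highest other library ran from 2.01 to 2.55, and 13 of the 21 genes lay below 2.1. The 2 genes just inside the limit had a ratio of 2.01, and the gene just outside had 1.99, with 96.0 and 48.3 RPM in 408 replicates 2 and 1 and 9.0 and 2.5 RPM in 409 replicates 1 and 2. At 308 to 5631 reads per gene in 408 replicate 2, as estimated from depth, the lower bound of the 95% counting interval of the ratio was 2 or more in 5 of 21 genes and 1.5 or more in 21 of 21. These intervals cover counting error only and not the spread between pools.

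**Figure D4:**
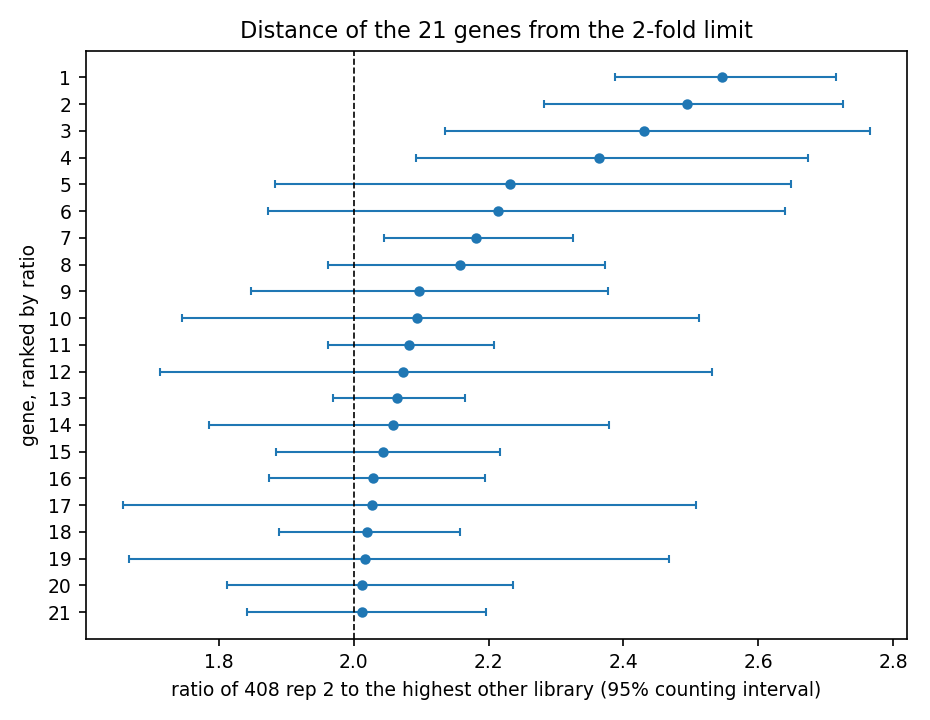
Ratio of 408 replicate 2 to the highest other library for the 21 genes, ranked, with 95% exact counting intervals. The interval lies wholly above the dashed 2-fold limit in 5 genes and reaches below it in the others.

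Genes just short of the limit looked alike. With a mean under 500 RPM, 464 genes had a ratio from 1.5 to under 2, and 454 of them (97.8%) had 408 replicate 1 above both 409 libraries, while 14 were flat. From 1.2 to under 1.5 there were 1798 genes, of which 95.6% were in line order and 24.1% were flat. Thus genes highest in 408 replicate 2 were mostly in line order at every size of the excess examined, and the share of flat genes was smaller at the larger excesses. At the other limit, the lowest gene of the group had 22.3 RPM in 408 replicate 2, and the highest gene left out for its level had 17.2 RPM.

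Between the lines, 19 of the 21 genes had both 408 libraries above both 409 libraries, against 41.8% of the 17391 genes tested. In a linear model of log2(RPM + 1) for all tested genes (limma, Benjamini-Hochberg adjusted p under 0.05), 14 of the 21 were called higher in 408, against 17.1% of the genes tested. The choice used the same values, so neither count is evidence of a difference between the lines. The 7 genes not called, with adjusted p values of 0.0599 to 0.216 in limma, included the 5 with the largest ratio of 408 replicate 2 to the other libraries. The calls were lost whenever a library was left out, for the whole table as for the 21 genes. The median log2 fold change of the 21 genes was 2.94 with all 4 libraries. It was 2.20 to 3.72 when a library was left out, and 2.39 without 408 replicate 2.

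Peaks of the same size in the other libraries were counted with the same limits. There were 33 genes for 408 replicate 1, 10 for 409 replicate 1 and 28 for 409 replicate 2. The second-highest library was the other pool of the same line in 19 of 21 genes peaking in 408 replicate 2 and in 25 of 28 peaking in 409 replicate 2. It was so in 8 of 33 peaking in 408 replicate 1 and in 7 of 10 peaking in 409 replicate 1. The remaining 3 libraries were flat in 11 of the 33 genes peaking in 408 replicate 1, against 0 of the 21. These groups share the same 4 libraries, and their difference was not tested.

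By the naming convention of these cucumber IDs, the first number gives the chromosome. Chromosome 6 held 8 of the 21 and chromosome 7 held 4, against 17.1% and 9.83% of the 9829 genes. Chromosome 5 held 3, against 12.7% of the 9829 genes, and chromosomes 2 and 4 held 2 each, against 12.7% and 12.4%. Chromosome 1 held 1, against 14.3%, and 1 gene had UN in place of the number, against 0.315%. Chromosome 3 held 0 of the 21, against 20.7% of the 9829 genes. With 21 genes these counts are small, and no test was made.

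On chromosome 6 a run of neighbours shared the pattern. Csa6G191570 and Csa6G192080, both of the 21 genes, lie 2 places apart in the order of the IDs, and the run was singled out after its values were seen. Csa6G191570 measured 118.3 and 58.8 RPM in 408 replicates 2 and 1, against 13.8 and 1.8 RPM in 409 replicates 1 and 2. Csa6G192080 measured 234.9 and 107.7 RPM in 408 replicates 2 and 1, against 24.5 and 4.4 RPM in 409 replicates 1 and 2. Csa6G191580 between them and Csa6G193580 and Csa6G193590 after them descended in the same order and missed the limit, with ratios of 1.78, 1.96 and 1.91.

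The 5 genes of the run reached 118.3 to 262.3 RPM in 408 replicate 2, against 0.7 to 9.5 RPM in 409 replicate 2. The genes at either end of the run did not share the pattern. Csa6G191560 measured 35.9 and 39.4 RPM in 408 replicates 2 and 1, against 47.6 and 43.5 RPM in 409 replicates 1 and 2. Csa6G193600 measured 17.8 and 45.9 RPM in 408 replicates 2 and 1, against 24.8 and 21.8 RPM in 409 replicates 1 and 2. Over the whole table, 493 genes had at least 20 RPM in 408 replicate 2 and a ratio of 1.5 or more. This was the only run of 5 such neighbours, and the next longest were 17 runs of 2. Of the 21 genes, 4 had such a neighbour within 2 places in the order of the IDs. Of the 83 distinct genes in those places 7 (8.43%) were such genes, against 2.465% of the listed genes. Near-identical copies lying side by side could share reads in the authors' counting, so the values of neighbouring genes are uncertain to that extent.

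**Figure D5:**
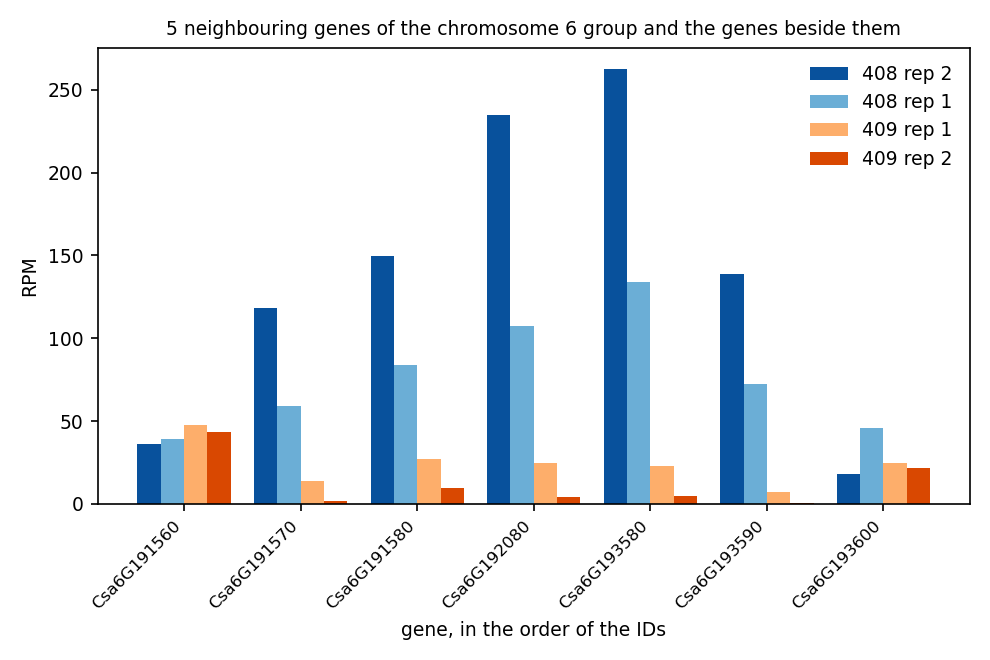
RPM in the 4 libraries (bars, 408 libraries left of the 409 libraries) for the 5 neighbouring genes of chromosome 6 and the gene on each side, in the order of their IDs. The 5 genes reach 118.3 to 262.3 RPM in 408 replicate 2 and 0.7 to 9.5 RPM in 409 replicate 2, while the outer genes have no such order.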

How the data were processed

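RNA was sequenced from 2 pools of young fruit per line. Libraries were made from poly(A)-selected RNA with a strand-keeping kit, per the labels' protocols, and TopHat was used as aligner, per the submitters' processing notes. The sources used here do not give its version, the genome build, the counter or whether strand was used. The deposited table holds RPM to 1 decimal, and each column sums to 1000000 within rounding. All 4 columns matched a sample title.

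The table gives no read totals. Depth was estimated from the frequency of the rounded RPM steps up to 30 RPM, and the procedure was tested on simulated data. At these depths 1 read is worth 0.0724 to 0.0816 RPM, less than the step of 0.1 RPM, so read counts were not recoverable and a count test was not possible. Intervals of ratios are exact (Clopper-Pearson) 95% intervals on RPM times estimated depth.

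Of the genes, 17391 had at least 1 RPM in at least 2 libraries and were tested with limma 3.58.1 in R 4.3.3 on log2(RPM + 1), with a mean-variance trend and no covariates. All 21 genes passed this filter. Fold changes on this scale understate those of low genes. With 2 libraries per line the p-values rest on a spread pooled over genes. Flat means a highest of 3 libraries at most 1.5 times the lowest. The genes named were the 2 in line order, and up to 2 with 408 replicate 1 below both 409 libraries, with the largest ratio. The others are said to be chosen after their values were seen. The genes and the rules were chosen with earlier results of these data known. The other steps used Python 3.11.15 (scipy 1.17.1, numpy 2.4.6, matplotlib 3.10.9, pandas 2.3.3).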

Additional observations from a re-analysis of the deposited data

How the results depend on the processing

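The number of genes chosen depended on the limits. At 1.5 times it was 485 and at 3 times 0, which leaves no shares to give, and with 10 RPM as the minimum it was 36. After quantile normalization it was 40, with 21 of the 21 kept, and after median-of-ratios rescaling 22, with 21 kept. Leaving out 1 of the other 3 libraries gave 21 to 1437 genes, the largest without 408 replicate 1. The share in line order was 85.7% to 97.5% over the other limits and rescalings, and 90.5% to 100% when a 409 library was left out, the higher without 409 replicate 1. The flat share was 0% to 4.76% over the other limits, bands and rescalings, and 0% to 19.0% when a library was left out, the highest without 409 replicate 2. These omissions were added after the data were seen. The 4738 genes called between the lines, and the 14 of the 21 among them, both became 0 without a filter on low values (8340 genes had an unadjusted p under 0.05 in limma, 17 of them among the 21) and 0 to 0 when a library was left out (3974 to 7264 genes, and 8 to 18 of the 21). The cause was not tested. With the replicate number as a block, 1356 genes and 12 of the 21 were called. Deviations of same-numbered libraries correlated at -0.48 across genes, and nothing in the labels ties a number to a batch. Depth limits values below 0.217 to 0.245 RPM, the level of 3 reads.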

Other observations

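The group overlaps with genes that are steep between other libraries. Of the 21 genes, 11 (52.4%) reached 20 RPM in 408 replicate 1 and were 10 times lower or more in 409 replicate 2. Of the 20000 listed genes, 163 had that property, and the 11 were 6.75% of them. The choice used the same libraries, so the overlap is a description only.

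Differences within a line were unequal between the pools. At 20 RPM or more in the higher pool, 23 genes were at least 2 times higher in 408 replicate 2 than in 408 replicate 1, and 276 genes were so the other way round. In line 409, 41 genes were at least 2 times higher in replicate 2 than in replicate 1, and 207 the other way round. Of the 276 genes 107 had 408 replicate 1 as the highest of the 4 libraries, against 23 of the 23 for 408 replicate 2. The 23 include the 21 genes of the group, which were chosen with 408 replicate 2 the highest.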
